A study of Homo sapiens with 4 samples.

Results

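The members are 10 genes that encode amino acid transporters or their partner chain, namely SLC7A11, SLC7A5, SLC3A2, SLC1A4, SLC1A5, SLC38A1, SLC38A2, SLC7A1, SLC7A2 and SLC43A1. They were taken by gene symbol from a fixed list that was drawn up with earlier results of these data known. All 10 were found among the 19801 genes measured. All 10 also had an RPKM (a read count scaled by transcript length and library size) of at least 1 in at least 1 library, as did 14626 genes in all. The cells were LNCaP, an androgen-sensitive human prostate cancer line. They were transfected for 24 h with empty vector or with the AR1-651 plasmid, and then kept for 12 h with or without Ailanthone (AIL), a small natural molecule. Each of the 4 conditions was sequenced as 1 library, so no difference below has a replicate check and no test is given. The expression is transient and in whole cultures, and fewer cells of a kind cannot be told apart from less RNA per cell.

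Amino acid transporters supply the cell with building blocks for protein, with glutamine for metabolism and with cystine for glutathione. SLC3A2 (CD98, the 4F2 heavy chain) carries no amino acid itself; it brings light chains such as SLC7A5 and SLC7A11 to the cell surface. SLC1A5 and the SLC38 proteins bring glutamine and other neutral amino acids in, and the SLC7A5-SLC3A2 pair exchanges such amino acids for leucine, which activates mTORC1. Several of these genes are known targets of ATF4, a transcription factor of the integrated stress response that is made when amino acids run short or proteins misfold. SLC43A1 was first described in prostate cancer, and transporters of leucine and glutamine have been linked to androgen signalling in this tissue.

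ATF4 with a C/EBP partner binds composite elements of the form TGATGNAA, and NRF2, the oxidant-response factor, binds elements that contain TGACNNNGC. Both strings were searched on both strands from 250 bases before to 50 bases after each annotated start in the RefSeq promoter table (GRCh38.p14), after the sequences had been seen. SLC7A11 and SLC7A2 were not searched, which left 8 members with 15 windows. TGATGNAA was present in 5 of the 15 windows, at 5 members, against 3.62% of 35116 windows of all genes. TGACNNNGC was present in 4 of the 15, at 4 members, against 13.3%. The 5 stretches with the first string and the SLC3A2 stretch with the second are shown. With AIL in empty vector cells SLC3A2 was higher and the other genes shown were lower. The second string was also present at SLC7A5, SLC1A5 and SLC7A1, which were lower with AIL too, and those stretches are not shown. Each stretch shown is 30 bases on the strand of the gene with the match in capitals. Those of SLC3A2 (first) and SLC1A4 match on the other strand.
SLC3A2, TGATGNAA: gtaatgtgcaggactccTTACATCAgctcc
SLC3A2, TGACNNNGC: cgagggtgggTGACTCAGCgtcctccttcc
SLC1A4, TGATGNAA: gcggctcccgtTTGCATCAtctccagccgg
SLC1A5, TGATGNAA: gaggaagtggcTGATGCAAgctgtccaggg
SLC38A1, TGATGNAA: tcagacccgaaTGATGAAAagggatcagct
SLC7A1, TGATGNAA: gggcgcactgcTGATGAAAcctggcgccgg
The stretches of SLC3A2 lie at chr11:62881719-62881748 and chr11:62881652-62881681 on the plus strand, and their matches span bases 38 to 45 and -37 to -29 counted from the start as base 1. That of SLC1A4 lies at chr2:64989381-64989410 (plus strand, -7 to 1) and that of SLC1A5 at chr19:46784893-46784922 (minus strand, -97 to -90). Those of SLC38A1 and SLC7A1 lie at chr12:46266502-46266531 (minus strand, -4 to 4) and chr13:29595663-29595692 (minus strand, 8 to 15). A match describes these letters and does not show that a factor binds there.

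The depth behind the RPKM values was estimated from low genes with 1 transcript, among which 60.5 to 63.2% of the values lay within 10% of whole multiples of 1 read. Values are given first for empty vector cells without and with AIL, and then for AR1-651 cells without and with AIL. In that order the libraries held an estimated 5030000, 4740000, 5460000 and 5650000 reads on genes. Luminal prostate markers were expressed in every library, for example KRT18 at an RPKM of 325.03, 564.31, 637.68 and 473.77. The basal keratin KRT14 reached at most 0.21 and the leukocyte gene PTPRC at most 0.94. The stroma markers COL1A1 and VIM reached 4.59 and 2.2. One label calls the RNA retinal, and the luminal markers are those of the prostate line named in the others. The androgen-regulated gene KLK2 had an RPKM of 14.33, 11.55, 197.5 and 45.39, highest in the AR1-651 library without AIL.

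With AIL in empty vector cells, 9 of the 10 transporter genes were lower and SLC3A2 was the only one that was higher. At least 2-fold differences on the log2(RPKM + 1) scale were counted, a scale that understates the differences of genes with low RPKM. By that count 7 of the 10 members were lowered, against 9.03% of all genes tested, and 1 was raised, against 9.53%. The median log2 difference was -1.40 over the members and -0.02 over all genes. With AIL in AR1-651 cells, 4 members were lowered, against 5.74% of all genes, and 1 was raised, against 14.9%. The median was then -0.52, against 0.13 over all genes. SLC7A11, SLC1A5, SLC7A1 and SLC43A1 were lowered at least 2-fold with AIL in both backgrounds, and SLC3A2 was raised in both.

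**Figure D1:**
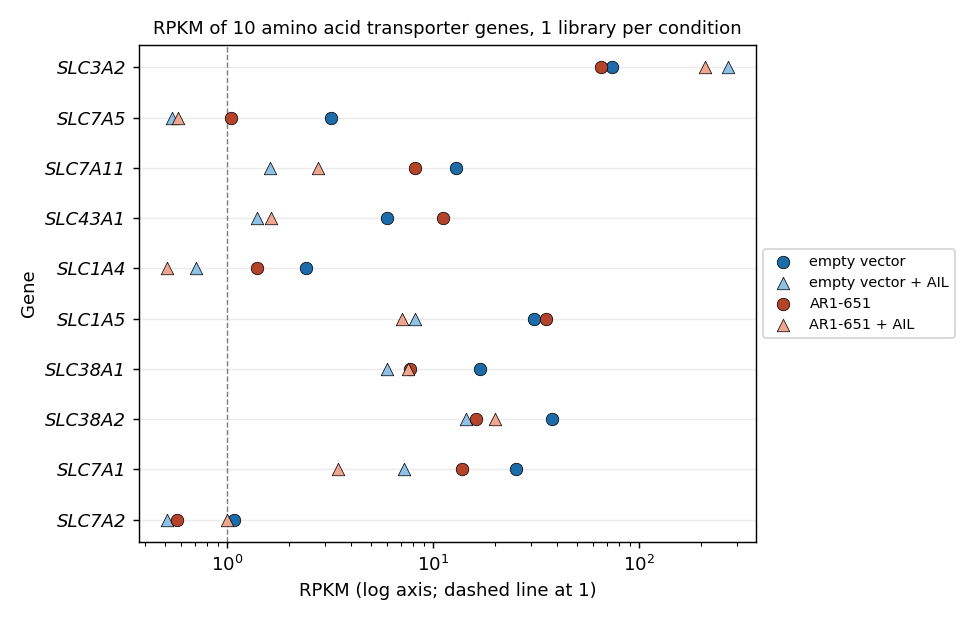
RPKM of the 10 transporter genes (vertical axis) on a log axis, with 1 point for each library: circles without AIL, triangles with AIL, blue for empty vector and red for AR1-651. SLC3A2 lies highest in every library and moves from 73.6 to 271 with AIL in empty vector cells, whereas the triangles of SLC7A11, SLC1A5, SLC7A1 and SLC43A1 lie left of both circles.

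SLC3A2, the heavy chain, had an RPKM of 73.63, 270.68, 65.79 and 210.43. The libraries with AIL were both high and those without AIL both low, and AR1-651 was slightly below empty vector in each pair, though with median-ratio scaling it was above it without AIL (log2 0.10). The RPKM with AIL was 3.68 times that without in empty vector cells, with a 95% interval of 3.38 to 3.999. In AR1-651 cells it was 3.20 times as high (2.94 to 3.49). These intervals come from the estimated reads (exact binomial method); they cover counting error only, not the spread between cultures. A log2 difference at least as high was found for 1.70% of all genes in empty vector cells and for 4.06% in AR1-651 cells. Among genes that reached an RPKM of 1, SLC3A2 exceeded 91.6% in the empty vector library and 98.2% in the empty vector + AIL library.

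SLC7A11 (xCT), the light chain that exchanges glutamate for cystine, had an RPKM of 12.87, 1.61, 8.20 and 2.77. Both libraries with AIL were low, and the lowest was empty vector + AIL with an estimated 74 reads against 624 with empty vector alone. AIL lowered it 7.99-fold in empty vector cells (ratio 0.125, 0.0976 to 0.160), and 0.513% of all genes had a log2 difference as low. The decrease was 2.96-fold in AR1-651 cells (ratio 0.338, 0.279 to 0.408). SLC7A11 therefore differed by -2.41 on the log2 scale in one background and by -1.29 in the other. Its transcript is the longest of the 10 at 9645 nt and has the lowest GC content, 35.4%. After the trend with length and GC over all genes was taken out, the log2 differences were -2.15 and -2.18.

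SLC7A5 (LAT1), the light chain for leucine and other large neutral amino acids, had an RPKM of 3.21, 0.54, 1.05 and 0.58. It was highest with empty vector alone and near 0.5 in both libraries with AIL. These values rest on an estimated 73, 12, 26 and 15 reads. With AIL it was 5.94-fold lower in empty vector cells (ratio 0.168, 0.0862 to 0.324). In AR1-651 cells, where it was already low, the ratio was 0.552 and its interval of 0.275 to 1.09 included 1. SLC7A5 was thus expressed at a far lower level than the heavy chain throughout.

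Because SLC3A2 was higher with AIL and SLC7A5 and SLC7A11 lower, the amount of SLC3A2 mRNA per mRNA of each moved more than either gene. Other light chains of SLC3A2 were not part of this comparison. Per RPKM of SLC7A5 there were 22.9, 501, 62.7 and 363 RPKM of SLC3A2. The values with AIL, 501 and 363, rest on an estimated 12 and 15 reads of SLC7A5. Per RPKM of SLC7A11 there were 5.72, 168, 8.02 and 76.0. A ratio within a library does not depend on how that library was scaled, but it can depend on the trend with length and GC. With that trend removed, the log2 difference of SLC7A11 with AIL in AR1-651 cells went from -1.29 to -2.18. That of SLC3A2 went from 1.66 to 1.73. SLC3A2 made up 35.0% of the summed RPKM of the 10 genes with empty vector and 40.8% with AR1-651, but 87.0% and 82.6% in the libraries with AIL. The sum of the 10 was 210.24, 311.26, 161.41 and 254.9, so it was higher with AIL. Without SLC3A2 the sum of the other 9 was 136.61, 40.58, 95.62 and 44.47, lower with AIL in both backgrounds.

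**Figure D2:**
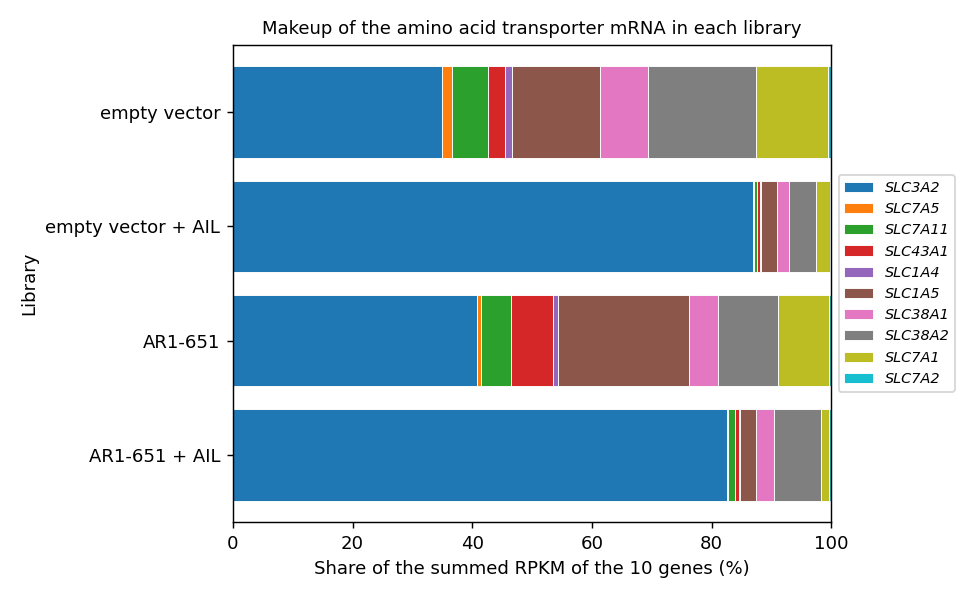
Share of each gene in the summed RPKM of the 10 transporter genes (horizontal axis, percent) in each of the 4 libraries (bars). SLC3A2 fills 35.0 and 40.8% of the bars without AIL and 87.0 and 82.6% of those with AIL, and the other 9 genes share the rest.

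SLC43A1 (LAT3), a facilitated leucine transporter that needs no heavy chain, had an RPKM of 5.97, 1.39, 11.20 and 1.64. It was highest with AR1-651 alone and low in both libraries with AIL, on an estimated 74, 16, 152 and 23 reads. AIL lowered it 4.29-fold in empty vector cells (ratio 0.233, 0.125 to 0.398) and 6.83-fold in AR1-651 cells (0.146, 0.0901 to 0.228). In AR1-651 cells 0.588% of all genes had a log2 difference as low. Without AIL it had the highest ratio of AR1-651 to empty vector among the 10, 1.88 (1.42 to 2.53). Its log2 difference there was 0.81, short of 2-fold.

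SLC1A5 (ASCT2), a sodium-dependent exchanger that takes up glutamine, had an RPKM of 31.04, 8.14, 35.52 and 7.08. Both libraries without AIL were high and both with AIL low, with little between the vectors. AIL lowered it 3.81-fold in empty vector cells (ratio 0.262, 0.205 to 0.336). In AR1-651 cells it was 5.02-fold lower (0.199, 0.157 to 0.252), and 0.615% of all genes had a log2 difference as low. With AR1-651 the ratio was 1.14 without AIL and 0.870 with AIL, and both intervals (0.991 to 1.33 and 0.636 to 1.19) included 1. An antisense transcript, AC008622.2, overlaps 23.4% of its exon bases, and the counting is not stated to use strand.

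SLC1A4 (ASCT1), its relative for alanine, serine and cysteine, had an RPKM of 2.41, 0.71, 1.40 and 0.51. It followed the same order of AIL below no AIL at a much lower level, on an estimated 35, 10, 22 and 8 reads. In empty vector cells the RPKM ratio with AIL was 0.295 (0.134 to 0.626). Because of the pseudocount its log2 difference was -0.996, just short of the 2-fold count. In AR1-651 cells the ratio was 0.364 (0.135 to 0.821) and the log2 difference -0.67. SLC1A5 had 12.9, 11.5, 25.4 and 13.9 times the RPKM of SLC1A4.

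SLC7A1 (CAT1), the main carrier of arginine and lysine in many cells, had an RPKM of 25.37, 7.27, 13.83 and 3.46. AIL lowered it 3.49-fold in empty vector cells (ratio 0.287, 0.248 to 0.330) and 3.997-fold in AR1-651 cells (0.2502, 0.208 to 0.302). AR1-651 stood below empty vector both without AIL (ratio 0.545, 0.490 to 0.606) and with it (0.476, 0.386 to 0.588). The log2 differences for AR1-651 were -0.83 and -0.89, neither of them at 2-fold, and the first was -0.14 with the length and GC trend removed. SLC7A1 was therefore lowest where both were given and highest where neither was.

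SLC7A2 (CAT2), a cationic transporter with inducible expression in many tissues, had an RPKM of 1.08, 0.51, 0.57 and 1.00. It was the lowest member in every library except AR1-651 + AIL, where SLC1A4 and SLC7A5 were lower, and no library rose above an estimated 43 reads. The ratio with AIL was 0.472 in empty vector cells (0.252 to 0.829) and 1.75 in AR1-651 cells (1.03 to 2.99). On the log2(RPKM + 1) scale neither difference, -0.46 and 0.35, was near 2-fold. The second turned to -0.28 with the length and GC trend removed. With a pseudocount of 0.1 the differences were -0.95 and 0.72. The highest and lowest libraries differed by little more than 0.5 RPKM.

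SLC38A2 (SNAT2), the system A carrier known to be induced when amino acids are scarce, had an RPKM of 37.80, 14.40, 16.12 and 19.89. It was high with empty vector alone and lower in the other 3 libraries, between 14.40 and 19.89. With AIL it was 2.62-fold lower in empty vector cells (ratio 0.381, 0.335 to 0.432). In AR1-651 cells it was not lower, with a ratio of 1.23 (1.08 to 1.40), but its log2 difference turned from 0.29 to -0.48 with the length and GC trend removed. SLC38A1 (SNAT1), the related carrier of glutamine, had an RPKM of 16.86, 6.01, 7.73 and 7.54. Its ratio with AIL was 0.356 in empty vector cells (0.288 to 0.437) and 0.975 in AR1-651 cells (0.789 to 1.201). Both SNAT genes thus had a similar order over the 4 libraries, and SLC38A2 had 2.24, 2.40, 2.09 and 2.64 times the RPKM of SLC38A1.

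**Figure D3:**
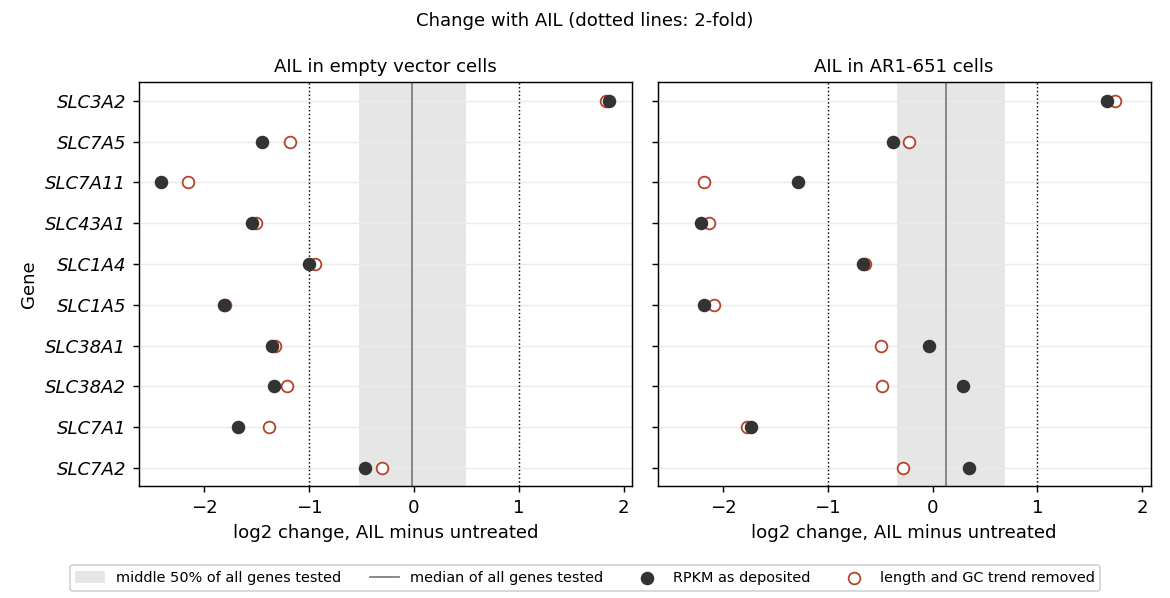
Log2 difference of RPKM + 1 with AIL (horizontal axis) for the 10 genes in empty vector cells (left) and AR1-651 cells (right). Filled points use RPKM as deposited, open points have the length and GC trend of all genes removed, grey bands hold the middle 50% of all genes tested, and dotted lines mark 2-fold. SLC3A2 lies at 1.86 and 1.66, and SLC7A11 at -2.41 and -1.29, or -2.15 and -2.18 as open points.

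The AIL differences of the 2 backgrounds were set against each other. In AR1-651 cells the log2 difference was higher than in empty vector cells by 1.62 for SLC38A2, 1.32 for SLC38A1, 1.12 for SLC7A11, 1.08 for SLC7A5 and 0.81 for SLC7A2. For SLC1A5, SLC7A1 and SLC3A2 it differed by -0.37, -0.06 and -0.20, for SLC43A1 by -0.66 and for SLC1A4 by 0.33. The GC contents of SLC7A11, SLC38A2, SLC7A2 and SLC38A1 were the lowest of the 10, from 35.4 to 42.9%, whereas SLC7A5 had the highest, 61.1%. With the trend removed the differences were 0.73 for SLC38A2, 0.83 for SLC38A1, 0.95 for SLC7A5, 0.023 for SLC7A2 and -0.03 for SLC7A11, so none of these reached 2-fold. SLC3A2, SLC7A11, SLC1A5, SLC7A1 and SLC43A1 were on the same side of 2-fold with AIL in both backgrounds before and after.

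With AR1-651 in the absence of AIL, 8 of the 10 members were lower than with empty vector, and SLC1A5 and SLC43A1 were higher. Of the 8, SLC3A2 turned higher with median-ratio scaling, and SLC7A11 (0.20) and SLC7A2 (0.25) with the length and GC trend removed. SLC38A2, SLC38A1 and SLC7A5 were lowered at least 2-fold (3 of 10, against 11.6% of all genes) and none was raised (against 4.01%). Their RPKM ratios were 0.426 (0.380 to 0.479), 0.458 (0.382 to 0.549) and 0.327 (0.201 to 0.519). The median log2 difference of the members was -0.55, beside -0.30 for all genes, of which 67.0% were lower. All 3 calls ended under 2 other settings. With libraries scaled by median ratios the log2 differences of SLC38A2, SLC38A1 and SLC7A5 were -0.92, -0.79 and -0.88 (from -1.18, -1.03 and -1.04), and with the length and GC trend removed they were -0.60, -0.62 and -0.31. SLC43A1 passed 2-fold under both, at 1.05 and 1.09. Scaling by median ratios moved the median of all genes from -0.30 to -0.09.

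With AIL present, the AR1-651 and empty vector libraries differed less, in the transporters as over all genes. No member was raised or lowered at least 2-fold, against 1.46% and 3.53% of all genes. Without AIL these shares of all genes were 4.01% and 11.6%. The median log2 difference was 0.09 over the members and -0.03 over all genes, and 6 members were higher and 4 lower. Of the 4, SLC1A4 and SLC1A5 turned higher, at 0.10 and 0.15, with the trend removed. SLC7A1 differed most, at -0.89, followed by SLC7A11 at 0.53. SLC7A11 had 1.72 times the RPKM with AR1-651 + AIL that it had with empty vector + AIL (1.29 to 2.29), while without AIL its ratio was 0.637 (0.562 to 0.721).

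**Figure D4:**
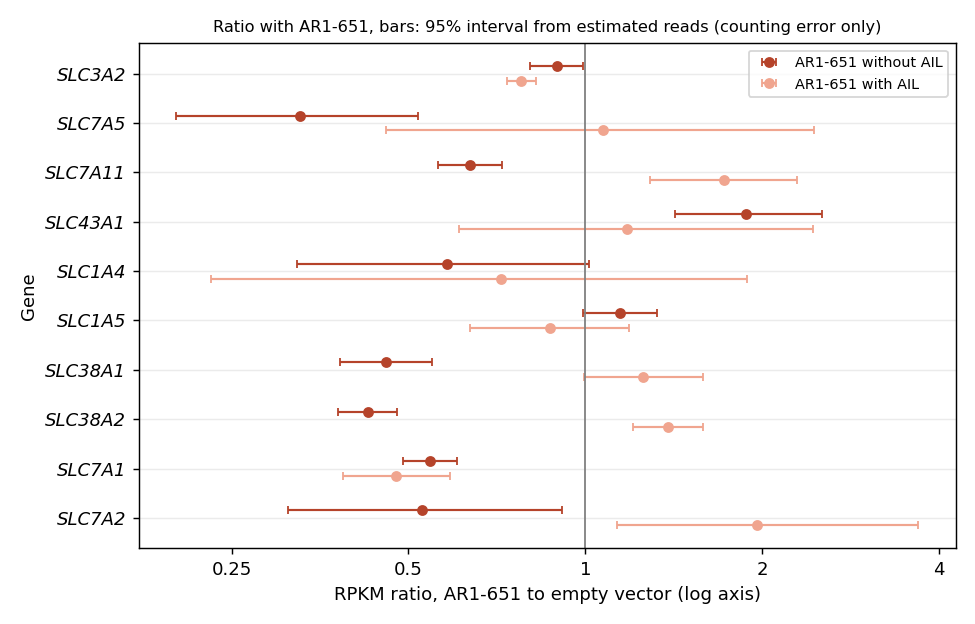
Ratio of RPKM with AR1-651 to RPKM with empty vector (log axis) for the 10 genes, without AIL (dark) and with AIL (light). Bars are 95% intervals from estimated reads and cover counting error only. SLC38A2 lies at 0.426 without AIL and 1.38 with AIL, while SLC7A1 lies at 0.545 and 0.476.

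Genes of the ATF4 amino acid response were examined because several members belong to it. ATF4, ATF3 and CEBPG, which are transcription factors of the response, were raised with AIL in both backgrounds. Its serine metabolism enzymes PHGDH, PSAT1, PSPH and SHMT2 were lower without reaching 2-fold. Their log2 differences were -0.80 to -0.43 in empty vector cells and -0.63 to -0.48 in AR1-651 cells. ATF4 had an RPKM of 170.94, 703.38, 271.62 and 727.08, and ATF3, a partner factor induced in the same response, 7.08, 144.9, 13.79 and 159.5. CHAC1, a glutathione-degrading enzyme that is a classical ATF4 target, had 5.14, 0.29, 6.80 and 0.45, lower with AIL where ATF4 mRNA was higher. Of 22 genes without the members, 6 were raised with AIL in empty vector cells (ATF3, ATF4, ATF5, SESN2, DDIT3 and CEBPG) and 3 lowered (CHAC1, VLDLR and DDIT4), against 9.53% and 9.03% of all genes. In AR1-651 cells 4 were raised (ATF3, ATF4, SESN2 and CEBPG) and 3 lowered (CHAC1, DDIT4 and PYCR1), against 14.9% and 5.74%, so the share raised was near that of all genes. The median of the list was -0.32 in empty vector cells, beside -0.02 for all genes, and -0.30 in AR1-651 cells, beside 0.13. Asparagine synthetase (ASNS), another ATF4 target, had an RPKM of 45.33, 30.24, 63.7 and 33.7. SLC3A2 was thus the only member that differed in the direction of ATF4 mRNA in both backgrounds. ATF4 protein was not measured.

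**Figure D5:**
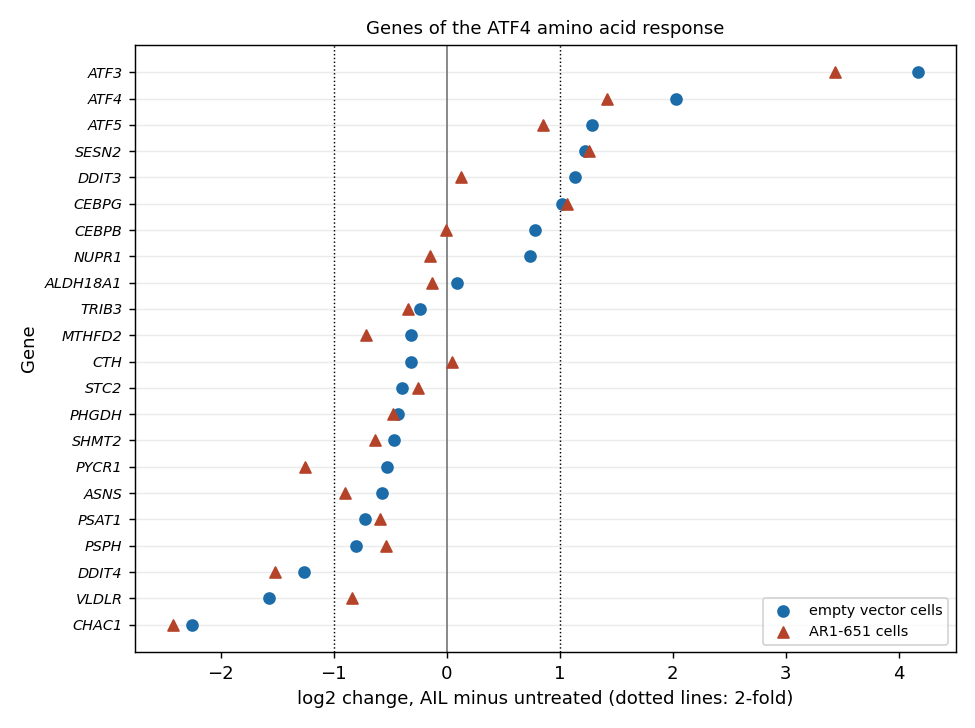
Log2 difference of RPKM + 1 with AIL (horizontal axis) for 22 genes of the ATF4 amino acid response, in empty vector cells (circles) and AR1-651 cells (triangles); dotted lines mark 2-fold. ATF3 lies at 4.17 and 3.44 and ATF4 at 2.03 and 1.42, whereas CHAC1 lies at -2.25 and -2.43.

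Other transporters of amino acids outside the 10 were also mostly lower with AIL. Of 38 listed genes, 30 were in the data and 17 had an RPKM of at least 1 in some library. With AIL 6 of the 17 were lowered (against 9.03% of all genes) and 1 raised (9.53%) in empty vector cells, with a median of -0.65 beside -0.02 for all genes. In AR1-651 cells 4 were lowered (against 5.74%) and 0 raised (14.9%), with a median of -0.17 beside 0.13. SLC7A8 (LAT2), another light chain of SLC3A2, had an RPKM of 31.59, 5.03, 13.6 and 2.86. SLC7A6, also a light chain of SLC3A2, had 10.26, 8.89, 5.74 and 8.06 and was not lower with AIL in AR1-651 cells. The glycine transporter SLC6A9 had 5.86, 0.26, 2.39 and 0.16. The one raised was SLC7A9, the cystine light chain that pairs with SLC3A1 rather than SLC3A2, at an RPKM of 0.46, 1.98, 0.21 and 0.93. With AR1-651 without AIL, 7 of the 17 were lowered, against 11.6% of all genes, with a median of -0.74 beside -0.30. With AIL 0 were called in either direction, against 1.46% raised and 3.53% lowered.

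Lists of genes related to the transporters were read against the same shares of all genes with AIL. These were 9.53% raised and 9.03% lowered in empty vector cells, and 14.9% and 5.74% in AR1-651 cells. Among 14 genes of the NRF2 response and glutathione synthesis, AIL lowered 1 in empty vector cells and 3 in AR1-651 cells, and raised 0 and 1. Of the 14, 11 were lower and 3 higher with AIL in empty vector cells, where 51.0% of all genes were lower. In AR1-651 cells 9 were lower and 5 higher, where 42.5% of all genes were lower. NQO1, an NRF2 target and the one lowered at least 2-fold in empty vector cells, had an RPKM of 165.81, 82.37, 174.99 and 70.49. NFE2L2, which encodes NRF2, had 15.03, 13.16, 5.68 and 15.89. Among 20 genes of amino acid sensing by mTORC1, AIL raised 1 and lowered 3 in empty vector cells, and raised 2 and lowered 1 in AR1-651 cells, near the shares of all genes. The leucine sensor SESN2 was among those raised in both, at an RPKM of 14.09, 34.2, 5.97 and 15.69. Among 10 genes of glutamine metabolism, AIL lowered GPT2, a transaminase that uses glutamate, in both backgrounds (25.95, 11.58, 30.76 and 9.08), and raised only PPAT in AR1-651 cells.

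A set of 6 genes known to be regulated by androgen, among them KLK2 and TMPRSS2, was read in the same libraries. All 6 were raised at least 2-fold with AR1-651 without AIL, against 4.01% of all genes. All 6 were lowered when AIL was added to AR1-651 cells (against 5.74%), whereas AIL lowered 1 of them in empty vector cells (against 9.03%). Among the transporters SLC43A1 alone passed 1.5-fold upwards with AR1-651 without AIL, and it was lowered with AIL in both backgrounds. SLC1A5, SLC7A1 and SLC7A11 were lowered with AIL without having been higher by 1.5-fold with AR1-651.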

How the data were processed

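RNA of 4 LNCaP cultures was prepared with a stranded kit and sequenced on an Illumina HiSeq 2000. The authors aligned the reads and deposited RPKM values per gene, rounded to 2 decimals. The submitters' processing notes name BWA 0.7.10-r789 and hg19. The read counter and annotation release are not given in the sources used here. RPKM is relative to the library total, so a few abundant genes lower all others.

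Symbols were matched by Entrez identifier (19703 of 19801 genes). Differences of log2(RPKM + 1) were taken over the 14626 genes that reached an RPKM of 1 in some library, and 2-fold was the threshold. Reads were estimated from the steps between low RPKM values of genes of 200 to 2000 nt with 1 transcript, a step added after seeing the data. Intervals are 95% Clopper-Pearson. Lengths and GC contents came from GENCODE 29. The lengths of members with several transcripts are means, so their reads are approximate. The trend was a polynomial of degree 3 over the 14005 genes with both values. Alternatives were a pseudocount of 0.1, median-ratio scaling, an RPKM minimum of 5 or none, and 1.5-fold. Members and lists were chosen with earlier results of these data known. Besides the members, up to 3 genes per list and comparison with the largest differences were named, and other named genes were chosen after their values were seen. A few genes that this rule selects are not reported. Calculations were tested on simulated data. Python 3.11.15, NumPy 2.4.6, pandas 2.3.3, SciPy 1.17.1 and Matplotlib 3.10.9 were used.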

Additional observations from a re-analysis of the deposited data

Results flagged for a closer look

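SLC38A2 and SLC7A2 were lower with AIL in empty vector cells and higher in AR1-651 cells. For SLC38A2 the log2 differences were -1.33 and 0.29, which differ by 1.62, and for SLC7A2 they were -0.46 and 0.35, which differ by 0.81. With 1 library per condition the difference between backgrounds was not tested. Once the length and GC trend of all genes was removed, both genes were lower with AIL in AR1-651 cells too, at -0.48 for SLC38A2 and -0.28 for SLC7A2. The AR1-651 library without AIL enters both the AIL difference in AR1-651 cells and the AR1-651 difference without AIL.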

How the results depend on the processing

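Of 150 values for single genes, 11 no longer passed 2-fold under the alternatives and 6 newly passed it. A further 8 changed sign, 7 of them short of 2-fold before and after. The counts with AIL in both backgrounds were within 1.5 times under every alternative run. Without AIL, AR1-651 lowered 0 members with median-ratio scaling, against 817 of 14626 genes, and 0 with the trend removed, against 523 of 14005. At 1.5-fold it lowered 5, against 4720 of 14626 genes. It raised 1 under each of these 3, against 1066 of 14626, 657 of 14005 and 1570 of 14626 genes in that order. With AIL, AR1-651 lowered 1 member with a pseudocount of 0.1, against 1160 of 14626 genes, and 1 at 1.5-fold, against 2271 of 14626. The median with AIL in AR1-651 cells was -1.03 with a pseudocount of 0.1. The SLC7A11 difference between backgrounds was -0.0305 with the trend removed, against 1.12. That of SLC7A2, 0.81, was 1.67 with a pseudocount of 0.1.

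Among values short of 2-fold, SLC7A11 with AR1-651 without AIL went from -0.59 to 0.20 with the trend removed, and SLC3A2 from -0.16 to 0.10 with median-ratio scaling. Leaving out a replicate was not possible with 1 library per group. No paired analysis was possible because the result comes from no test. SLC7A5, SLC1A4 and SLC7A2 rest on at most an estimated 73 reads, which limits their precision, and the spread between cultures is unknown.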

Other observations

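SLC7A11 and SLC43A1 were compared with 7497 genes that reached an RPKM of 5 in each of the 4 libraries. The measure was the root-mean-square distance between log2(RPKM + 1) profiles over the 4 libraries, each centred on its mean. SLC7A11 and SLC43A1 themselves fell to an RPKM of 1.61 and 1.39, where the added 1 shrinks differences more than in the compared genes. The distances therefore understate how far their RPKM ratios differ from those of the compared genes. The genes nearest to SLC7A11 were GOLIM4 (distance 0.15), TMEM97 (0.18) and BCHE (0.19). TMEM97, a sterol-regulated membrane protein, had an RPKM of 26.56, 6.37, 20.37 and 7.71 in empty vector cells without and with AIL and then in AR1-651 cells without and with AIL, the order kept here. The genes nearest to SLC43A1 included HERPUD1 (0.14) and HSPA5 (0.14). HSPA5, the main chaperone of the endoplasmic reticulum, had an RPKM of 268.24, 84.71, 428.28 and 77.6, and HERPUD1, a component of degradation there, had 50.35, 17, 73.54 and 15.52. Each profile has 4 points, so many genes lie close to any such shape.

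Parts of the exons of 2 further members overlap an antisense transcript in GENCODE 29. SLC7A11-AS1 covers 2.86% of the exon bases of SLC7A11, and AC126696.2 covers 2.53% of those of SLC7A5.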
